A study of Homo sapiens with 7 samples.

Results

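RNA levels of 10 class I antigen processing genes were followed in SUM159 cells, a human mesenchymal triple-negative breast cancer line, with and without depletion of the tyrosine phosphatase SHP2. The genes were chosen by name (B2M, TAP1, TAP2, TAPBP, PSMB8, PSMB9, PSMB10, ERAP1, ERAP2 and NLRC5), and all 10 were measured, among 18417 genes with a probe that carries a single gene symbol. The cells had been transduced with a lentiviral vector that expresses a microRNA-type hairpin under doxycycline. The hairpin was a control in 2 samples (Ctrl shRNA), a first hairpin against SHP2 in 2 samples (SHP2 sh1) and a second in 3 samples (SHP2 sh2). All 3 groups, the controls included, received doxycycline for 15 days in 2D culture, and no group without doxycycline or without a hairpin was analysed here. Total RNA of each sample was hybridized to a GeneChip Human Gene 1.0 ST array, which reads each transcript with probes along its length. Expression is given on the log2 scale after robust multi-array averaging (RMA), so a difference of 1 is a doubling of brightness, and levels of different genes are not compared because their probes differ in brightness.

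Cells show fragments of their own proteins to cytotoxic T cells on MHC class I molecules. The proteasome cuts proteins into peptides, and in cells exposed to interferon gamma the catalytic subunits PSMB8, PSMB9 and PSMB10 replace PSMB5, PSMB6 and PSMB7 to form the immunoproteasome. The transporter TAP1/TAP2 carries peptides into the endoplasmic reticulum, where ERAP1 and ERAP2 trim their ends and TAPBP (tapasin) bridges the transporter to empty class I molecules. B2M (beta-2-microglobulin) is the light chain of every class I molecule, and NLRC5 is the transactivator that switches on class I genes together with the X box factors of the MHC enhanceosome. Tumor cells with little of this machinery can escape T cells. TAP2, PSMB8, TAP1 and PSMB9 are neighbors on chromosome 6, in this order, with TAPBP elsewhere on the same chromosome. ERAP1 and ERAP2 are neighbors on chromosome 5, B2M lies on chromosome 15, and PSMB10 and NLRC5 lie on chromosome 16.

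The promoters of these genes are known for elements that answer to interferon, NF-kB and the MHC enhanceosome, so their sequences are shown before the expression values. In the RefSeq promoter sequences of GRCh38.p14, 9 of the 10 members had an entry, with 13 start sites in all. The 250 bases before each start were searched on both strands for 4 motifs. The interferon-stimulated response element (ISRE, GAAANNGAAA, bound by IRF factors) was found at 6 of the 13 start sites, in 6 members, and in 3.02% of 35116 promoters of this length, each counted as a single start site. The gamma-activated site (GAS, TTCNNNGAA, bound by STAT factors) was found at 2 of the 13 start sites and in 6.57% of promoters. The core of the X2 box (TGACG, bound by CREB and ATF factors) was found at 4 of the 13 and in 21.2% of promoters. An NF-kB motif (GGGNNTTNCC) was found at 4 of the 13 and in 5.07% of promoters. The stretches below run 5′ to 3′ toward the start, with matches in capitals. B2M, TAP1 and TAPBP are shown because each has a pair of overlapping ISRE matches and an NF-kB match. PSMB9 is shown because it is transcribed away from TAP1 and the windows of the pair overlap at their 5′ ends, and PSMB10 because its expression differed in sign from that of most members.
B2M promoter (chr15:44711267-44711516, plus strand): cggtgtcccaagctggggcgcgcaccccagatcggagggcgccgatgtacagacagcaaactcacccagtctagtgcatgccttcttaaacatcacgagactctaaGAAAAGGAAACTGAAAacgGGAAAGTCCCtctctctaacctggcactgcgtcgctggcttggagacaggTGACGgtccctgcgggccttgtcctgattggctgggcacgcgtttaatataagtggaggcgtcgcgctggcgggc
TAPBP promoter (chr6:33314079-33314328, minus strand): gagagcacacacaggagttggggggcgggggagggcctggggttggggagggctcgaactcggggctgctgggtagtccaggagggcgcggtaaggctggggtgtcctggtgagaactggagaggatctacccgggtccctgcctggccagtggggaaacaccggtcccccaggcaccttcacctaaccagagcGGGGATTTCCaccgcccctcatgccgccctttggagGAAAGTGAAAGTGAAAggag
TAP1 promoter (chr6:32853705-32853954, minus strand): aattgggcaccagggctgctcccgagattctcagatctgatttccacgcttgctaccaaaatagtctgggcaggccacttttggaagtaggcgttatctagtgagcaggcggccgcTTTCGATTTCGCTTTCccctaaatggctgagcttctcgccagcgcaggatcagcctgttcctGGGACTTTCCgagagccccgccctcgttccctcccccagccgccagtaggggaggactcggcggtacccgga
PSMB9 promoter (chr6:32853942-32854191, plus strand): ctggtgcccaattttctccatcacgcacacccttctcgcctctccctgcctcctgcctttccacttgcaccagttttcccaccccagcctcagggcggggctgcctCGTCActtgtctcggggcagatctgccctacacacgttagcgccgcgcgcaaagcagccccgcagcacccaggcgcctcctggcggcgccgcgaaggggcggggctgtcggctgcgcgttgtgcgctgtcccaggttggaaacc
PSMB10 promoter (chr16:67936851-67937100, minus strand): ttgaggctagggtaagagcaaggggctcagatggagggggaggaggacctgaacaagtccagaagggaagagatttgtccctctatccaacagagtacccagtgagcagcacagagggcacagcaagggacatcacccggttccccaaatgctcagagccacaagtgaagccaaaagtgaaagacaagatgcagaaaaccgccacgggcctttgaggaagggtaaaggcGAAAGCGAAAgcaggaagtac
In B2M the ISRE pair began 144 bases before the start and was followed closely by an NF-kB match, and an X2 core began 75 bases before it. In TAPBP the ISRE pair lay within 20 bases of the start. TAP1 had its ISRE pair 134 bases and its NF-kB match 72 bases before the start. The PSMB9 window held an X2 core only, on the minus strand. PSMB10 had a single ISRE match that began 21 bases before the start. TAP2 and ERAP2 each had an ISRE match too, and TAP2 also an X2 core. PSMB8 had an X2 core and a GAS match at different start sites, and ERAP1 an NF-kB match. Another start site of TAP1, not shown, had a GAS match. These are matches of letters only, and binding was not measured.

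PTPN11, the gene of SHP2, was at 9.53 and 9.18 on the Ctrl shRNA arrays, at 7.90 and 6.93 under SHP2 sh1 and at 7.96, 7.20 and 7.89 under SHP2 sh2. All 5 SHP2 hairpin arrays thus lay below both controls, in the direction of their labels. In limma the PTPN11 log2 difference was -1.93 with SHP2 sh1 (unadjusted p = 0.00243, adjusted p = 0.995). With SHP2 sh2 it was -1.67 (unadjusted p = 0.00329, adjusted p = 0.667). The targeted gene itself thus did not pass an adjusted p under 0.05, so a gene that did not pass cannot be read as unchanged. The arrays of SHP2 sh1 replicate 2 and of SHP2 sh2 replicate 2 stood apart from the rest: over all probes the correlation between arrays was 0.981 to 0.992 among the other 5 and 0.886 to 0.965 between these 2 and the other 5. Whether replicate arrays had separate cultures is not stated in the sample labels. A p-value therefore reflects only how far these arrays differ, perhaps for technical reasons, and their small number limits the precision. The mesenchymal markers VIM (11.62 to 12.18), FN1 and CD44 were bright on every array. ZEB1, a transcription factor of the mesenchymal state, was at 8.05 to 8.61 on 5 arrays but at 7.33 and 7.01 on the pair that stood apart, and these 4 markers shifted from the control mean by a median of -0.38 and -0.86 on those 2 arrays. The part of this shift in the results below was not tested. A set of 7 blood cell markers averaged 5.13 to 5.70 per array, with PTPRC (CD45) at 3.90 to 4.75. The epithelial cadherin gene CDH1 was at 5.16 to 6.20 on 5 arrays and at 7.42 and 7.12 on the 2 that stood apart. EPCAM, of the same list, was at 3.58 and 4.10 on those 2, beside 3.62 and 2.89 in controls. The 5 epithelial and receptor markers, CDH1 included, shifted by a median of 0.49 and 0.85 on them. The dim blood cell markers shifted up there too, by a median of 0.41 and 0.54. The part of these shifts in the results below was not tested.

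With SHP2 sh2, 9 of the 10 members had a mean below that of Ctrl shRNA and 1, PSMB10, a mean above it. The median difference of the members was -0.53 on the log2 scale, beside 0.09 over all genes. All genes include many dimmer than any member. Genes at least as bright as the dimmest member shifted from the control mean by medians of -0.11, -0.71 and -0.02 on SHP2 sh2 replicates 1, 2 and 3. In bulk RNA, fewer cells that express a gene and less of its RNA per cell cannot be told apart. With SHP2 sh1, 7 members had lower and 3 had higher means, and the median was -0.21 beside 0.04 over all genes. No member passed the test in either comparison or in the mean of both hairpins (0 of 10 at an adjusted p under 0.05 in limma, and 0 of 10 at an unadjusted p under 0.05). The background was the same, with 0% of 18417 genes called in each comparison at the adjusted threshold, against 201 genes for SHP2 sh1, 432 for SHP2 sh2 and 358 for the mean of both hairpins at an unadjusted p under 0.05. Both hairpins were compared with the same 2 control arrays, so the SHP2 sh1 and SHP2 sh2 differences are not independent of each other. The values of each member on each array are plotted by group.

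**Figure D1:**
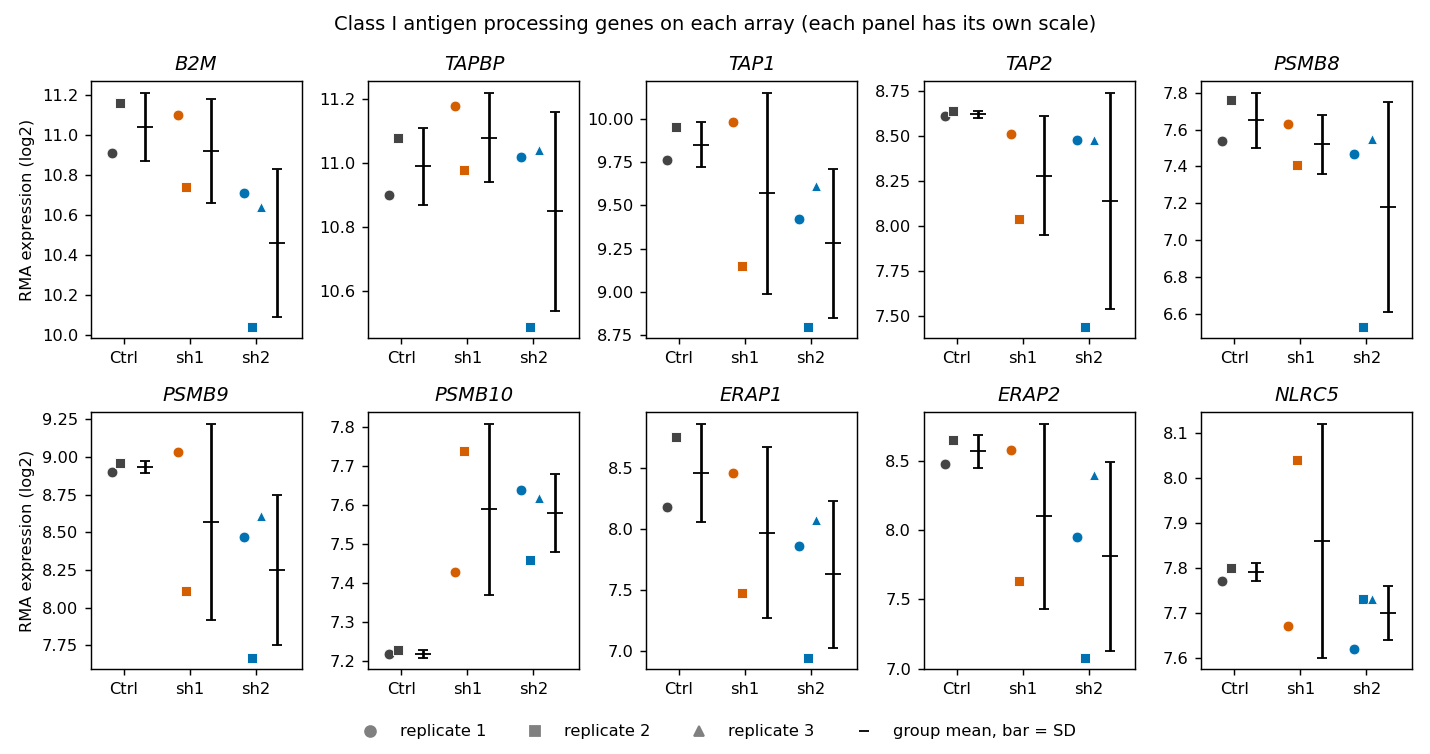
Log2 RMA expression of the 10 class I antigen processing genes (y axis, each panel on its own scale) on the Ctrl shRNA, SHP2 sh1 and SHP2 sh2 arrays (x axis), with a symbol per replicate number and the group mean with its SD as a bar. For B2M, TAP1, TAP2, PSMB9, ERAP1, ERAP2 and NLRC5 all 3 SHP2 sh2 arrays lie below both controls, for PSMB10 all 5 SHP2 hairpin arrays lie above them, and replicate 2 of SHP2 sh2 is the lowest array for 8 of the 10 genes.

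Read array by array, 7 of the 10 members (B2M, TAP1, TAP2, PSMB9, ERAP1, ERAP2 and NLRC5) were lower on all 3 SHP2 sh2 arrays than on both controls, where 16.1% of all genes were. PSMB10 alone was higher on all 3, where 24.2% of all genes were. Bright genes were lower more often: of the 8210 genes with a control mean of at least 7.22, that of the dimmest member, 29.5% were lower on all 3 arrays. A gene lower or higher on all 3 arrays is so on replicates 1 and 3 alone. Setting SHP2 sh2 replicate 2 aside could therefore only add members, and it added none. Replicates 1 and 3 were lower than both controls for 17.9% of all genes and for 30.5% of those 8210, and higher for 27% of all genes. With SHP2 sh1 the arrays overlapped those of the controls for 8 of the 10 members, the exceptions being TAP2, lower on both arrays (12.3% of all genes), and PSMB10, higher on both (12.8%). TAP2 was also the only member lower on all 5 SHP2 hairpin arrays (7.17% of all genes), and PSMB10 the only member higher on all 5 (8.13%). For SHP2 sh1 and for all 5 arrays, the members' counts of 1 in 10 in each direction were near these shares.

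B2M, the light chain, was at 10.91 and 11.16 on the Ctrl shRNA arrays, at 11.10 and 10.74 under SHP2 sh1 and at 10.71, 10.04 and 10.64 under SHP2 sh2. The SHP2 sh2 arrays lay at least 0.21 below both controls, while the SHP2 sh1 arrays lay on either side of the lower control. The SHP2 sh2 mean was 10.46 ± 0.37 (SD, n = 3) against 11.04 ± 0.17 (SD, n = 2), which is 1.49-fold lower. In limma this log2 difference was -0.58 (standard error 0.27, 95% interval -1.23 to 0.07, adjusted p = 0.667), and its unadjusted p of 0.0742 was the smallest of the members. It was -0.36 without SHP2 sh2 replicate 2, -0.15 with cyclic loess and -0.26 with quantile normalization of the summarized values. B2M was also the only member whose SHP2 sh2 arrays all lay below both SHP2 sh1 arrays, by as little as 0.03, where 3.08% of all genes were lower and 2.21% higher without overlap. That difference between the hairpins was -0.46 (standard error 0.27, 95% interval -1.11 to 0.19, adjusted p = 1.0 in limma), and -0.25 without SHP2 sh2 replicate 2.

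The peptide transporter was lower in mean with both hairpins, whereas tapasin, its bridge to class I molecules, differed little. TAP1 was at 9.76 and 9.95 with Ctrl shRNA, at 9.98 and 9.15 under SHP2 sh1 and at 9.42, 8.80 and 9.61 under SHP2 sh2. Its SHP2 sh1 arrays were the highest of the 7 and the second lowest, so the SHP2 sh1 mean rests on their spread. TAP2 was at 8.61 and 8.64 with Ctrl shRNA, at 8.51 and 8.04 under SHP2 sh1 and at 8.48, 7.44 and 8.48 under SHP2 sh2. Its controls differed by little, and the highest of the 5 SHP2 hairpin arrays lay 0.10 below them. The limma log2 differences with SHP2 sh2 were -0.58 for TAP1 (standard error 0.34, 95% interval -1.40 to 0.25) and -0.49 for TAP2 (standard error 0.36, 95% interval -1.36 to 0.38), with an adjusted p of 0.667 for each. Without SHP2 sh2 replicate 2 they were -0.34 and -0.14. TAPBP was at 10.90 and 11.08 with Ctrl shRNA, at 11.18 and 10.98 under SHP2 sh1 and at 11.02, 10.49 and 11.04 under SHP2 sh2. Apart from SHP2 sh2 replicate 2, all its SHP2 hairpin arrays lay within or above the range of the controls, and the log2 difference with SHP2 sh2 was -0.14 (95% interval -0.71 to 0.43, adjusted p = 0.738 in limma).

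The immunoproteasome subunits did not move together. PSMB8 (the beta5i subunit) was at 7.54 and 7.76 with Ctrl shRNA, at 7.63 and 7.41 under SHP2 sh1 and at 7.47, 6.53 and 7.55 under SHP2 sh2. Its 3 groups overlapped, with only SHP2 sh2 replicate 2 far below the controls. PSMB9 (beta1i) was at 8.90 and 8.96 with Ctrl shRNA, at 9.03 and 8.11 under SHP2 sh1 and at 8.47, 7.67 and 8.61 under SHP2 sh2. All 3 SHP2 sh2 arrays lay at least 0.30 below both controls, the widest such gap of any member, while SHP2 sh1 replicate 1 was the brightest array of all. PSMB10 (beta2i) was at 7.22 and 7.23 with Ctrl shRNA, at 7.43 and 7.74 under SHP2 sh1 and at 7.64, 7.46 and 7.62 under SHP2 sh2. All 5 SHP2 hairpin arrays lay at least 0.19 above both controls. The log2 differences with SHP2 sh2 were -0.46 for PSMB8 (standard error 0.34), -0.68 for PSMB9 (standard error 0.38) and 0.35 for PSMB10 (standard error 0.19), with an adjusted p of 0.667 in limma for each. Without SHP2 sh2 replicate 2 they were -0.14 for PSMB8, -0.39 for PSMB9 and 0.41 for PSMB10. For the mean of both hairpins the difference of PSMB10 was 0.36 (standard error 0.18, 95% interval -0.07 to 0.78, unadjusted p = 0.0853 and adjusted p = 0.758 in limma), or 1.28-fold higher. Without the 2 arrays that stood apart it was 0.31.

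PSMB5, PSMB6 and PSMB7, the constitutive partners, were widely spread among the SHP2 hairpin arrays. PSMB6 was at 9.78 and 9.60 with Ctrl shRNA, at 10.64 and 8.40 under SHP2 sh1 and at 9.32, 7.88 and 9.92 under SHP2 sh2. PSMB5 (9.10 and 8.88 in controls) and PSMB7 (9.64 and 9.37) were likewise lowest on the 2 arrays that stood apart, at 7.59 and 7.87 for PSMB5 and at 8.76 and 8.37 for PSMB7. Their log2 differences with SHP2 sh2 were -0.28 for PSMB5, -0.65 for PSMB6 and -0.20 for PSMB7 (adjusted p = 0.674 to 0.809 in limma). The log2 ratio of each immunoproteasome subunit to its partner was then taken within each array. Its size depends on the probes and only its change between arrays is read. The ratio of PSMB8 to PSMB5 differed by 0.09 between the 5 SHP2 hairpin arrays and the 2 controls, that of PSMB9 to PSMB6 by -0.10 and that of PSMB10 to PSMB7 by 0.61. Two-sided exact permutation tests gave p = 0.952, 0.857 and 0.286 for these 3 ratios, before any adjustment, and 2 arrays against 5 cannot go below 0.0952. The PSMB10 ratio was -2.42 and -2.14 in controls, -2.15 and -1.02 with SHP2 sh1 and -1.94, -0.91 and -2.33 with SHP2 sh2. Its high values were those of the arrays that stood apart, on which PSMB7 was low, and without them the difference was 0.14.

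**Figure D2:**
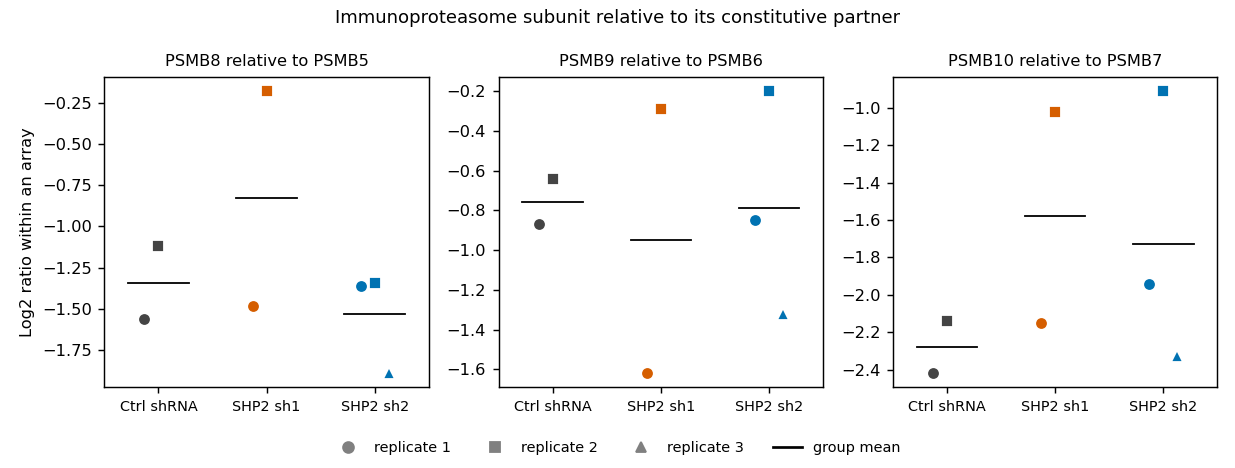
Log2 ratio of PSMB8 to PSMB5, PSMB9 to PSMB6 and PSMB10 to PSMB7 within each array (y axis, each panel on its own scale) for the Ctrl shRNA, SHP2 sh1 and SHP2 sh2 arrays (x axis), with a symbol per replicate number and a line at the group mean. In each panel the arrays of the 3 groups overlap, and replicate 2 of SHP2 sh1 is the highest or next to the highest array.

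The trimming peptidases had the largest mean differences and the widest spread of the members. ERAP1 was at 8.18 and 8.75 with Ctrl shRNA, at 8.46 and 7.48 under SHP2 sh1 and at 7.86, 6.95 and 8.07 under SHP2 sh2. ERAP2 was at 8.48 and 8.65 with Ctrl shRNA, at 8.58 and 7.63 under SHP2 sh1 and at 7.95, 7.08 and 8.40 under SHP2 sh2. For both genes SHP2 sh1 replicate 1 lay within the range of the controls and all 3 SHP2 sh2 arrays lay below both controls, by at least 0.12 for ERAP1 and 0.07 for ERAP2. The SHP2 sh2 mean of ERAP1 was 7.63 ± 0.60 (SD, n = 3) against 8.46 ± 0.40 (SD, n = 2), or 1.79-fold lower, and that of ERAP2 was 1.69-fold lower. The log2 differences were -0.84 (standard error 0.44, 95% interval -1.90 to 0.22) for ERAP1 and -0.75 (standard error 0.45, 95% interval -1.83 to 0.32) for ERAP2, with an adjusted p of 0.667 in limma for each. Without SHP2 sh2 replicate 2 they were -0.50 and -0.39.

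NLRC5, the class I transactivator, varied the least. It was at 7.77 and 7.80 with Ctrl shRNA, at 7.67 and 8.04 under SHP2 sh1 and at 7.62, 7.73 and 7.73 under SHP2 sh2. The SHP2 sh2 arrays were below both controls by only 0.04, less than the SD of 0.06 among them, and the SHP2 sh1 arrays lay on either side of the controls. Its log2 difference was -0.09 with SHP2 sh2 (95% interval -0.55 to 0.37, adjusted p = 0.785 in limma) and 0.07 with SHP2 sh1 (95% interval -0.43 to 0.58, adjusted p = 0.995).

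With SHP2 sh1 the lowest of the log2 differences from Ctrl shRNA were -0.49 for ERAP1 (standard error 0.49), -0.46 for ERAP2 (standard error 0.49) and -0.37 for PSMB9 (standard error 0.42), followed by -0.35 for TAP2 and -0.29 for TAP1. Those of B2M and PSMB8 were -0.11 and -0.13, that of TAPBP was 0.10 and that of PSMB10 was 0.36 (standard error 0.21, 95% interval -0.14 to 0.86). All had an adjusted p of 0.995 in limma. The lower values came from SHP2 sh1 replicate 2, without which ERAP1 was at -0.00, TAP2 at -0.11 and PSMB10 at 0.20, and ERAP2, PSMB9 and TAP1 were above 0. Every member had a lower mean with SHP2 sh2 than with SHP2 sh1, with a median difference between the hairpins of -0.29 beside 0.03 over all genes, and none passed the test of that difference (0 of 10 at an unadjusted p under 0.05, and 0% of all genes at the adjusted threshold, beside 116 genes at an unadjusted p under 0.05). This median was -0.02, with 5 of 10 members above 0, without SHP2 sh1 replicate 1, -0.02 without SHP2 sh2 replicate 2 and -0.54 without SHP2 sh1 replicate 2. The order of the group means was Ctrl shRNA, SHP2 sh1, SHP2 sh2 from high to low for B2M, TAP1, TAP2, PSMB8, PSMB9, ERAP1 and ERAP2, but neighboring groups in this order overlapped for all of these except TAP2 between Ctrl shRNA and SHP2 sh1 and B2M between SHP2 sh1 and SHP2 sh2.

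**Figure D3:**
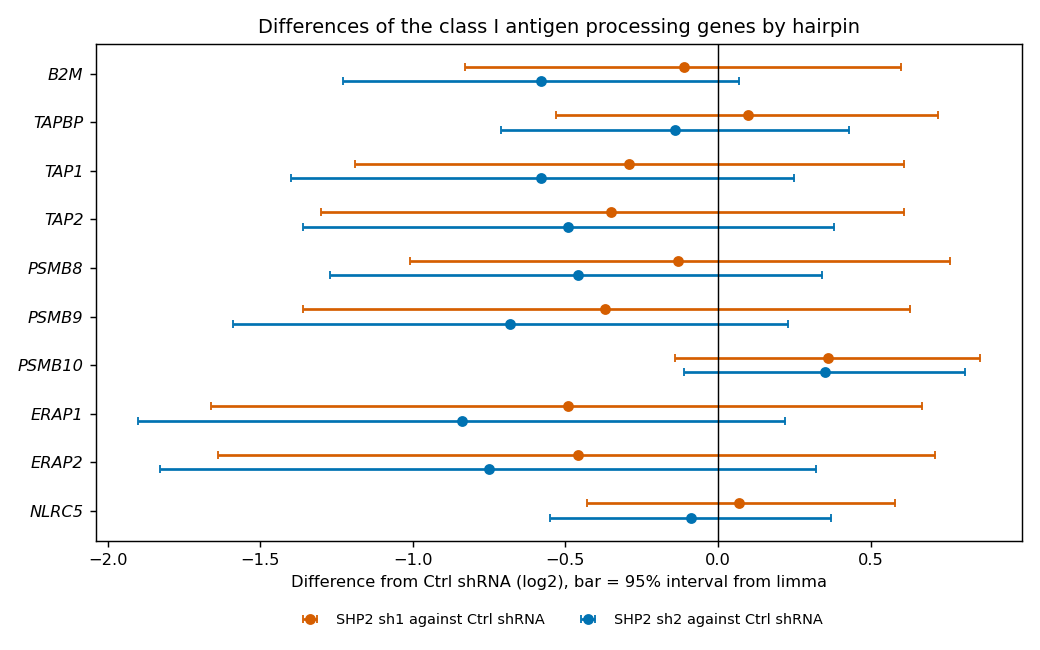
Log2 difference of each class I antigen processing gene from Ctrl shRNA (x axis) with its 95% interval from limma, for SHP2 sh1 and SHP2 sh2 (points and bars by color, one gene per line). The points run from -0.84 for ERAP1 with SHP2 sh2 to 0.36 for PSMB10 with SHP2 sh1, and every interval includes 0.

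The 5 SHP2 hairpin arrays did not contribute alike. The median shift of the members from the control mean was 0.04 on SHP2 sh1 replicate 1 and -0.44 on replicate 2, and it was -0.25, -1.09 and -0.15 on SHP2 sh2 replicates 1, 2 and 3. The 8210 genes at least as bright as the dimmest member shifted too, with medians of -0.01, -0.39, -0.11, -0.71 and -0.02 on the same arrays. The members were thus low mainly on the arrays on which bright genes in general were low. On each of the 4 arrays other than SHP2 sh1 replicate 1 their median was below that of those genes. An offset was seen between the controls too. The members' median was -0.09 on Ctrl shRNA replicate 1, with all 10 below the control mean, and 0.09 on replicate 2, beside 0.0 for the bright genes on replicate 1. When both arrays that stood apart were left out, the members' median difference with SHP2 sh2 was -0.24, with 8 of 10 below 0, and the single remaining SHP2 sh1 array gave a median of 0.04, with 6 of 10 above 0. On the remaining SHP2 sh2 arrays, replicates 1 and 3, the shifts from the control mean were -0.33 and -0.40 for B2M, -0.46 and -0.33 for PSMB9. They were -0.61 and -0.40 for ERAP1, whose controls themselves lay at -0.28 and 0.28. TAP1 had -0.44 and -0.24, ERAP2 -0.61 and -0.16, TAPBP 0.03 and 0.05, and PSMB10 0.42 and 0.40. The share of all genes with shifts of this size was not counted. Whatever sets the 2 arrays apart was not tested.

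**Figure D4:**
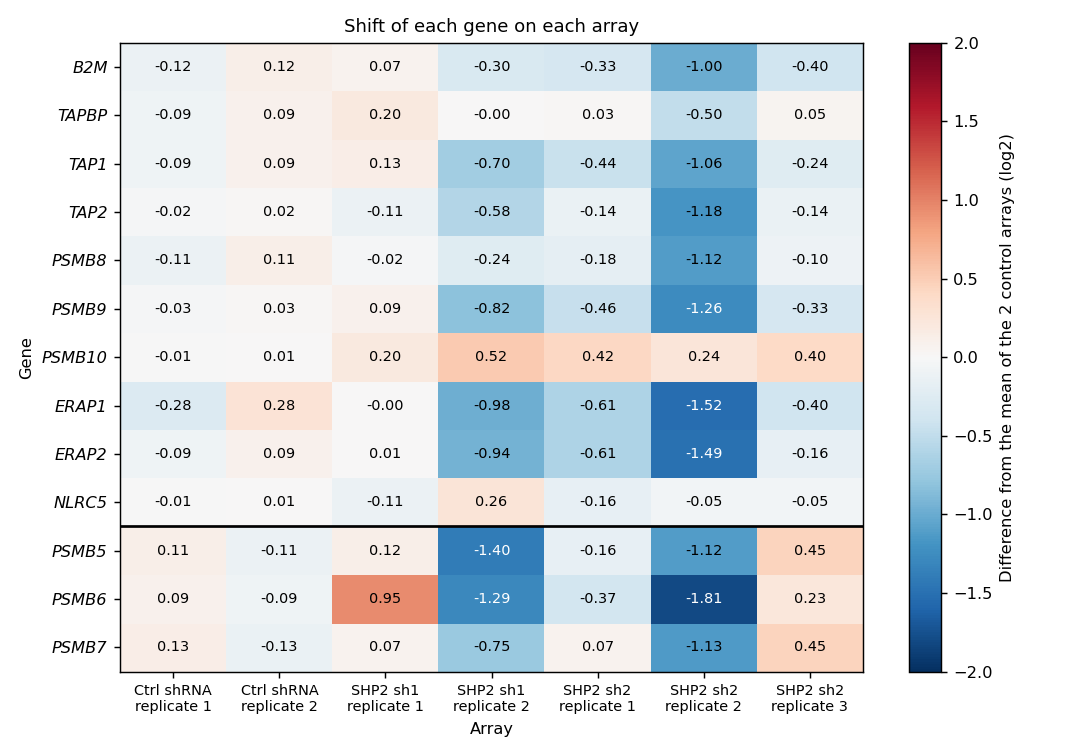
Difference of each gene's log2 value on each array from the mean of the 2 control arrays, by color and as printed numbers, for the 10 class I antigen processing genes (above the line) and the constitutive subunits PSMB5, PSMB6 and PSMB7 (below it), with arrays along the x axis. SHP2 sh2 replicate 2 holds the lowest shift of every member except PSMB10 and NLRC5, down to -1.52 for ERAP1, SHP2 sh1 replicate 1 holds no member outside -0.11 to 0.20, and PSMB10 is above 0 on all 5 SHP2 hairpin arrays.

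The members' values over the 7 arrays followed each other, with exceptions. Against the mean of the other 9 members, the correlation over the 7 arrays was 0.89 to 0.96 for 8 members, -0.41 for PSMB10 and -0.16 for NLRC5. Over the 5 arrays without the 2 that stood apart it was 0.88 to 0.97 for B2M, TAP1, PSMB8, PSMB9, ERAP1 and ERAP2, 0.60 for TAP2, 0.44 for TAPBP, 0.53 for NLRC5 and -0.77 for PSMB10. The arrays share their hairpin and their overall shift, so these values are descriptions. All 10 members were also lower on Ctrl shRNA replicate 1 than on replicate 2, and this difference enters the values. The share of other genes with correlations as high over the 5 arrays was not counted. The 6 genes outside the lists most like the mean of the members were RPE, SUMF2, MED17, TRIP11, ADAR and MARF1, with correlations of 0.993 to 0.994 over the 7 arrays, and 13.42% of all other genes had a correlation above 0.9. RPE, with a correlation of 0.994, was at 7.93 and 8.13 with Ctrl shRNA, at 8.15 and 6.80 under SHP2 sh1 and at 7.33, 5.40 and 7.55 under SHP2 sh2. ADAR, an RNA-editing enzyme with an interferon-induced form and a correlation of 0.993, was at 9.40 and 9.73 with Ctrl shRNA. It was at 9.62 and 8.87 under SHP2 sh1 and at 9.11, 8.24 and 9.38 under SHP2 sh2. A link of the 6 genes to interferon was not tested.

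Partners of the pathway were read from 8 further lists, in none of which a gene passed the adjusted threshold with SHP2 sh2. Over all genes, 7890 of 18417 had a lower mean with SHP2 sh2. The 8210 bright genes described above shifted by a median of -0.11, -0.71 and -0.02 on SHP2 sh2 replicates 1, 2 and 3. The counts of lower genes in the lists are to be read beside these values. No class I heavy chain gene (0 of 6) had a probe with a single symbol, so heavy chains were not analysed here. All 5 proteasome activator and maturation genes had a lower mean with SHP2 sh2, with a median log2 difference of -0.73, among them the activator PSME4 (-0.84) and the assembly chaperone POMP (-0.85). POMP was at 10.98 and 11.09 with Ctrl shRNA and at 10.37, 8.98 and 11.19 under SHP2 sh2, and without replicate 2 the difference was -0.25 for POMP and -0.35 for PSME4. The median shift of this list on SHP2 sh2 replicates 1, 2 and 3 was -0.34, -1.82 and 0.16. Of the 4 measured loading chaperones and editors 3 were lower, with a median of -0.12. HSPA5, the BiP chaperone, had -0.51, and TAPBPL, the tapasin-related peptide editor, had 0.12. All 5 other measured peptidases of this route were lower, with a median of -0.46, for example LAP3 (-0.49) and TPP2 (-0.60, and -0.21 without SHP2 sh2 replicate 2), both cytosolic peptidases.

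The interferon gamma pathway, which drives most members in other settings, had 8 of 10 measured genes below 0 with SHP2 sh2 and a median log2 difference of -0.36, with median shifts of -0.04, -0.96 and 0.05 on SHP2 sh2 replicates 1, 2 and 3. CXCL10, a chemokine induced by interferon, was at 9.69 and 10.00 with Ctrl shRNA, at 10.79 and 8.61 under SHP2 sh1 and at 8.41, 7.18 and 8.82 under SHP2 sh2. All 3 SHP2 sh2 arrays lay at least 0.88 below both controls, while the SHP2 sh1 arrays lay above and below them. In this list 3 of 10 genes were lower on all 3 SHP2 sh2 arrays and 1 higher, beside 16.1% and 24.2% of all genes. Of the 8210 bright genes 29.5% were lower on all 3, a share near that of the list. The CXCL10 difference with SHP2 sh2 was -1.71 (standard error 0.72, 95% interval -3.42 to 0.01, adjusted p = 0.667 in limma), and -1.23 without replicate 2. CXCL10 and IRF9 are named as the genes of smallest unadjusted p in this list. IRF9, a subunit of the interferon-activated ISGF3 complex, was at 8.94 and 9.11 with Ctrl shRNA, at 9.22 and 8.59 under SHP2 sh1 and at 8.02, 8.11 and 8.58 under SHP2 sh2. Its difference was -0.79 (standard error 0.28, unadjusted p = 0.0266 and adjusted p = 0.667 in limma), and its lowest array was replicate 1, not the replicate that stood apart.

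A list of 8 genes held the MHC enhanceosome, the factors that act with NLRC5 on class I promoters, and CIITA, the class II counterpart of NLRC5. Of these, 6 were below 0 with SHP2 sh2 (beside 7890 of 18417 over all genes), with a median log2 difference of -0.48. RFXAP, a subunit of the RFX complex on the X box, was at 6.28 and 6.40 with Ctrl shRNA, at 5.57 and 5.77 under SHP2 sh1 and at 5.79, 5.74 and 5.79 under SHP2 sh2. All 5 SHP2 hairpin arrays lay at least 0.48 below both controls with little spread, the 2 that stood apart included. NFYB, a subunit of the CCAAT-binding NF-Y complex, was at 6.25 and 6.33 with Ctrl shRNA, at 5.83 and 5.61 under SHP2 sh1 and at 5.83, 5.38 and 5.83 under SHP2 sh2, again below both controls on all 5. In this list 3 of 8 genes were lower on all 5 arrays, where 7.17% of all genes were. RFXAP and NFYB were both dim, at levels like those of the blood cell marker CD14 (5.81 to 6.63). The differences with SHP2 sh2 were -0.56 for RFXAP (standard error 0.18, unadjusted p = 0.0163) and -0.61 for NFYB (standard error 0.22, unadjusted p = 0.029), with an adjusted p of 0.667 in limma for each. Both genes were named as the pair of smallest unadjusted p in their list, and neither passed the test over all genes.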

How the data were processed

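Total RNA of 7 SUM159 samples was hybridized to whole-transcript arrays (Affymetrix Human Gene 1.0 ST). The authors made log2 expression values by robust multi-array averaging with the Bioconductor package oligo (its version is not given in the sources used here), which corrects the background, normalizes probes by quantiles and summarizes each transcript. These deposited log2 values (1.94 to 13.94) were used as given, without a filter on dim probes. The sample labels name a column kit for RNA extraction and the array methods name TRIzol. Quantile normalization acts before summarization, so arrays can still differ in the level of bright genes.

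Of 33297 probes, 19460 carried 1 symbol in the platform annotation, updated through gene IDs with the RefSeq table of GRCh38.p14 (19429 found), 1754 carried several and 12083 were not listed. The probe with the largest interquartile range stood for each of 18417 genes. The 3 probes of TAP1, PSMB8 and PSMB9 held identical values, and those of TAP2 and TAPBP differed in changes between arrays by at most 0.14. limma 3.58.1 (R 4.3.3) fitted the 3 group means over 7 arrays with eBayes and gave 4 two-sided comparisons with Benjamini-Hochberg adjustment over all genes at 0.05. The fit was also run on simulated data with changes larger than that of any member, which does not show its power for the members. Ratios of proteasome pairs were tested by exact permutation (Python 3.11.15). Genes named were all members, PTPN11, the constitutive partners, in each list the pair of smallest unadjusted p with SHP2 sh2, and the 6 genes most like the members. The members and lists were chosen with earlier results of these data known. Alternatives were other probe choices, a filter above 5 on at least 2 arrays, other normalizations, a variance trend, array weights, only the arrays compared, a replicate block and arrays left out.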

Additional observations from a re-analysis of the deposited data

How the results depend on the processing

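With 2 or 3 arrays a group, no member and no gene passed the test in any comparison under the alternatives tried, except that array weights called 30 genes with SHP2 sh2 (24 lower, 6 higher), with no member among them. That estimate did not converge, and the weight of SHP2 sh2 replicate 1 was 2.53e-06. The members' median log2 difference with SHP2 sh2 stayed below 0 throughout, from -0.66 to -0.24 with single arrays left out, at -0.23 with cyclic loess and -0.30 with quantile normalization of the summarized values. With SHP2 sh1 it was -0.44 to 0.04 with single arrays left out, above 0 without SHP2 sh1 replicate 2. Deviations from the group mean correlated at -0.06 to 0.02 between same-numbered control and SHP2 hairpin arrays. Between same-numbered SHP2 sh1 and SHP2 sh2 arrays they correlated at 0.62 and 0.85. Between SHP2 sh1 replicate 1 and SHP2 sh2 replicate 3 the value was 0.81. These values do not settle whether the number pairs the arrays. With the replicate block limma called 0 genes, and the medians were -0.21 with SHP2 sh1 and -0.66 with SHP2 sh2. Genes at an unadjusted p under 0.05 rose from 201 to 753, from 432 to 3323 and, for the mean of both hairpins, from 358 to 2427.

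Small differences turned sign. With SHP2 sh1, B2M was 0.19 with cyclic loess and 0.03 with quantile normalization. Without both arrays that stood apart, B2M was 0.07, ERAP2 0.01, NLRC5 -0.11, PSMB9 0.09 and TAP1 0.13. With SHP2 sh2, TAPBP was 0.29, 0.16 and 0.04 with cyclic loess, quantile normalization and without both arrays, and NLRC5 0.00 and 0.05 with those normalizations. HSPA5 was 0.04 without both arrays. PSMB5 was 0.02 with cyclic loess, 0.29 with array weights and 0.14 without both, PSMB6 0.03 with array weights, and PSMB7 0.16 with cyclic loess, 0.07 with quantile normalization, 0.29 with array weights and 0.26 without both. The PSMB8 to PSMB5 ratio differed by -0.18, -0.04 and -0.24 with cyclic loess, quantile normalization and without both. With single arrays left out, ranges were -0.30 to 0.07 for B2M, -0.94 to 0.01 for ERAP2, -0.11 to 0.26 for NLRC5, -0.82 to 0.09 for PSMB9, -0.70 to 0.13 for TAP1 and -0.00 to 0.20 for TAPBP with SHP2 sh1. They were -0.81 to 0.04 for HSPA5, -0.64 to 0.14 for PSMB5, -0.53 to 0.26 for PSMB7 and -0.23 to 0.04 for TAPBP with SHP2 sh2, -0.18 to 0.31 for the PSMB8 to PSMB5 ratio and -0.26 to 0.09 for the PSMB9 to PSMB6 ratio. The cause of these changes was not tested.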

Other observations

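MHC class II molecules, which present peptides to helper T cells, share the enhanceosome with class I. Of 8 listed genes of class II presentation 5 were measured. Of these, 4 were below 0 with SHP2 sh2 (median log2 difference -0.33), beside 7890 of 18417 over all genes. The chains HLA-DPA1 and HLA-DPB1 differed the most. HLA-DPA1 was at 9.74 and 9.18 with Ctrl shRNA, at 9.18 and 9.13 under SHP2 sh1 and at 9.19, 8.24 and 7.17 under SHP2 sh2. HLA-DPB1 was at 7.96 and 7.79, at 7.76 and 7.50 and at 7.81, 7.12 and 6.58 on the same arrays. Unlike the class I antigen processing genes, both were lowest on SHP2 sh2 replicate 3, and replicate 1 lay at the level of the controls. The differences with SHP2 sh2 were -1.26 (standard error 0.55) for HLA-DPA1 and -0.71 (standard error 0.36) for HLA-DPB1, with an adjusted p of 0.667 in limma for each. Without replicate 3 they were -0.74 and -0.41. For HLA-DPB1 other probe choices gave smaller differences, -0.51 with the probe of highest mean and -0.53 with the mean of its probes. For HLA-DPA1 these choices gave -1.26 and -1.23.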
